A study of Mus musculus with 18 samples.

Results

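In the E15.5 medial ganglionic eminence (MGE) of mouse embryos, 595 autosomal regions carried a deposited H3K27me3 interval in at least 2 of 3 Ezh2 knockout (KO) libraries and in none of the 3 wild-type (WT) libraries. They were found by joining overlapping intervals of the 6 E15.5 lists into 11531 union regions and keeping those with this pattern, which is 5.16% of the union regions. The opposite pattern, an interval in at least 2 WT libraries and in no KO library, was held by 115 regions, or 0.997%. These KO-only regions were chosen by the presence and absence of intervals in the E15.5 lists, so their E15.5 values are given as descriptions without a test. KO replicates 1, 2 and 3 held 478, 362 and 525 of the 595 regions. All 3 KO lists shared 175 of them, replicates 1 and 3 alone shared 233, replicates 2 and 3 alone shared 117, and replicates 1 and 2 alone shared 70. The number depends on single libraries: it was 248 without KO replicate 3, 316 without KO replicate 1 and 1085 without WT replicate 3.

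H3K27me3 was measured by bulk CUT&Tag, in which an antibody guides a transposase to chromatin that carries the mark and the tagged DNA is sequenced. The labels describe 3 WT and 3 KO replicates at each of E12.5 and E15.5, and the KO animals as Nkx2.1-CreC/+;Ezh2;Ai9F/+. Cre in these animals is expressed from Nkx2.1 and so acts in the lineage that uses this gene, and cells of other lineages in a dissected MGE keep Ezh2. Ai9 is a reporter allele that makes tdTomato (Tom) after Cre acts. The whole MGE was taken at E12.5, whereas at E15.5 the dissection was guided by Tom fluorescence. MGEs of embryos with the same genotype were combined where applicable, so a replicate may hold several embryos. The labels call the controls WT and name no alleles for them.

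EZH2 is the main catalytic subunit of Polycomb repressive complex 2 in dividing progenitors and places methyl groups on lysine 27 of histone H3. The trimethylated form marks repressed genes, above all developmental regulators with CpG-rich promoters, and its close paralogue EZH1 can place the same mark. The MGE is a ventral forebrain germinal zone that gives rise to most somatostatin and parvalbumin interneurons of the cortex and to other forebrain neurons. Intervals listed in the KO but not in the WT are opposite in direction to the enzyme's activity.

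A start site of a protein-coding gene lay inside 160 of the 576 KO-only regions on chromosomes other than 18, for which the reference table used here gives start sites. This is 27.8%, compared with 29.2% of all union regions and 54.4% of the regions held by all 6 E15.5 lists. Promoter sequences of 5 such genes are shown because these regions hold results described below. Papolb, Asphd2 and Notch3 had some of the highest E15.5 KO counts at a start site. Tnfrsf1a and Tmem37 lay in regions called lower in KO at E12.5 with libraries scaled by depth, a call that not every scaling gave. Each is the run of 250 bases before the start site, from RefSeq on GRCm38.p6, read 5′ to 3′ on the strand of the gene, with every CG dinucleotide in capitals. CG reads the same on both strands. The coordinates are chr5:142530077-142530326 on the minus strand for Papolb, chr5:112395371-112395620 on the minus strand for Asphd2, chr17:32166891-32167140 on the minus strand for Notch3, chr6:125349473-125349722 on the plus strand for Tnfrsf1a, and chr1:120073781-120074030 on the minus strand for Tmem37.
Papolb: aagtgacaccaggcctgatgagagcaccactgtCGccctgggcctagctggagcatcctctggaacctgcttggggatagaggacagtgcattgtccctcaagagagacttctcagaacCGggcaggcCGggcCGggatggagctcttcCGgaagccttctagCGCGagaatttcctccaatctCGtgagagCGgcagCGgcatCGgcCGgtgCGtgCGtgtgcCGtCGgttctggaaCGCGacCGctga
Asphd2: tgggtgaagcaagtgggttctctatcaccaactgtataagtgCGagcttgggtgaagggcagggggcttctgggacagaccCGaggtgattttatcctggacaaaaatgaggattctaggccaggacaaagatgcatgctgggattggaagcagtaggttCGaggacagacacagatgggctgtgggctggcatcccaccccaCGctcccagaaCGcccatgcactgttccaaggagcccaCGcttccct
Notch3: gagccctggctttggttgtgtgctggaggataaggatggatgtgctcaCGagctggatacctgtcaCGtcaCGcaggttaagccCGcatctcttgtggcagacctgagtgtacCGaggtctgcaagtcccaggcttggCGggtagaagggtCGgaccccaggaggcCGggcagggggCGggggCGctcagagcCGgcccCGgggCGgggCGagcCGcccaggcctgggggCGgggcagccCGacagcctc
Tnfrsf1a: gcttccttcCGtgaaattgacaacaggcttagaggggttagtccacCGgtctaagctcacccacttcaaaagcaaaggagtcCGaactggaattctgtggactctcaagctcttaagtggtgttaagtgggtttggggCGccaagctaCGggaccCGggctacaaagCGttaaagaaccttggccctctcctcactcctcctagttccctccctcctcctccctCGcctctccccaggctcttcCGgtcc
Tmem37: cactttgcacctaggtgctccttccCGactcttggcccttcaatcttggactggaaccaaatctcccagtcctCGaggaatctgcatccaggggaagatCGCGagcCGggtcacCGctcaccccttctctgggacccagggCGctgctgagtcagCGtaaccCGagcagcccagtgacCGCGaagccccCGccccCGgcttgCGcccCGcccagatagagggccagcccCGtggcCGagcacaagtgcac

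The 5 sequences hold 19, 6, 17, 9 and 17 CG dinucleotides in the order shown. Over the 300 bases from 250 before to 50 after a start site, the ratio of observed CG to that expected from the C and G content was 0.77 for Papolb, 0.39 for Asphd2, 0.71 for Notch3, 0.50 for Tnfrsf1a and 0.70 for Tmem37. The 189 promoters inside KO-only regions had a median ratio of 0.70, and 66.7% of them reached 0.6. Among 20085 autosomal promoters in the table the median was 0.59 and 48.9% reached 0.6. The 1990 promoters inside regions held by all 6 E15.5 lists had a median of 0.69, with 63.8% at 0.6 or above. Promoters inside all union regions had a median of 0.71, with 66.8% at 0.6 or above. Those inside the 115 regions of the opposite pattern had a median of 0.76, with 69% at 0.6 or above. By this measure the promoters of KO-only regions were close to those of listed regions in general and more CpG-rich than promoters at large. CpG content thus does not set the KO-only regions apart, a description that was not tested.

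All 3 E15.5 KO libraries were deeper than all 3 WT libraries, and the counts behind the KO-only regions were small. Depth, taken as the mean count per 200 bp window that the scores imply, was 0.0751, 0.129 and 0.150 in WT replicates 1 to 3 and 0.179, 0.216 and 0.346 in KO replicates 1 to 3. The groups do not overlap in depth. The count of a KO-only region ranged from 8 to 92 with a median of 15 in KO replicate 1, from 10 to 73 with a median of 17 in KO replicate 2, and from 7 to 141 with a median of 15 in KO replicate 3. The smallest autosomal counts in these lists were 8, 10 and 7, so each list reached its own minimum among these regions. Divided by depth, the median counts were 84.0, 78.8 and 43.4 in KO replicates 1, 2 and 3. The value in replicate 3 goes with its narrower intervals, which covered a median of 43.5% of a KO-only region, against 92.9% and 92.3% in replicates 1 and 2.

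The intervals over KO-only regions were thinner than the usual interval of the same library. Their median count per kb, divided by depth, was 28.0 in KO replicate 1, 23.2 in replicate 2 and 31.4 in replicate 3. Over all autosomal intervals of these libraries it was 41.3, 41.7 and 46.9. The deposited score, which is the authors' value, had a median of 32.0, 35.4 and 24.2 over KO-only regions against 54.6, 77.9 and 33.1 over all autosomal intervals.

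Scaled to the depth of the WT libraries, most KO-only regions came close to the smallest counts that the WT lists hold. The mean KO count per depth of each region, over the KO libraries that held it, was multiplied by the depth of each WT library. The median scaled count was 5.1 in WT replicate 1, 8.8 in replicate 2 and 10.3 in replicate 3, and the smallest autosomal counts listed there were 5, 7 and 7. For each region the scaled count was compared with the smallest count that the WT list gives to any interval of the same or smaller width. It reached that minimum for 316 regions (53.1%) in WT replicate 1, 468 (78.7%) in replicate 2 and 550 (92.4%) in replicate 3. It did so in all 3 libraries for 316 regions and in none for 45. The share in all 3 was 29.7% when KO libraries without an interval counted as 0, and 26.1% with the lowest KO count in place of the mean. Against the median count of WT intervals of like width, 4 regions (0.672%) reached it in all 3 libraries. Regions are in the KO lists because their counts were high enough there, so a scaled count can be too high. Absence from a WT list therefore means that no interval was listed at that depth, and depth and genotype cannot be told apart at E15.5.

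How often a WT list holds a region of a given scaled count was read from the 5067 union regions with an interval in at least 2 KO lists. In WT replicate 3, 41.6% of the regions with a scaled count from 5 to below 10 were listed, and 279 of the KO-only regions fall in this range. From 10 to below 15 the share was 63.6%, with 243 KO-only regions. From 15 to below 20 it was 82.9%, with 47. From 20 to below 40 it was 92.7%, with 23, and at 40 or more it was 99.3%, with 2. These shares include the KO-only regions, which the rule keeps out of every WT list, so the choice of regions itself lowers them. Of the 628 regions from 5 to below 10, 261 were listed and 279 were KO-only. Of the 1055 regions from 10 to below 15, 671 were listed and 243 were KO-only. The shares therefore cannot say how readily this WT list would hold a KO-only region. In WT replicate 1, 279 KO-only regions had a scaled count below 5, where 14.7% of regions were listed, and 291 lay from 5 to below 10, where 30.4% were listed.

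**Figure D1:**
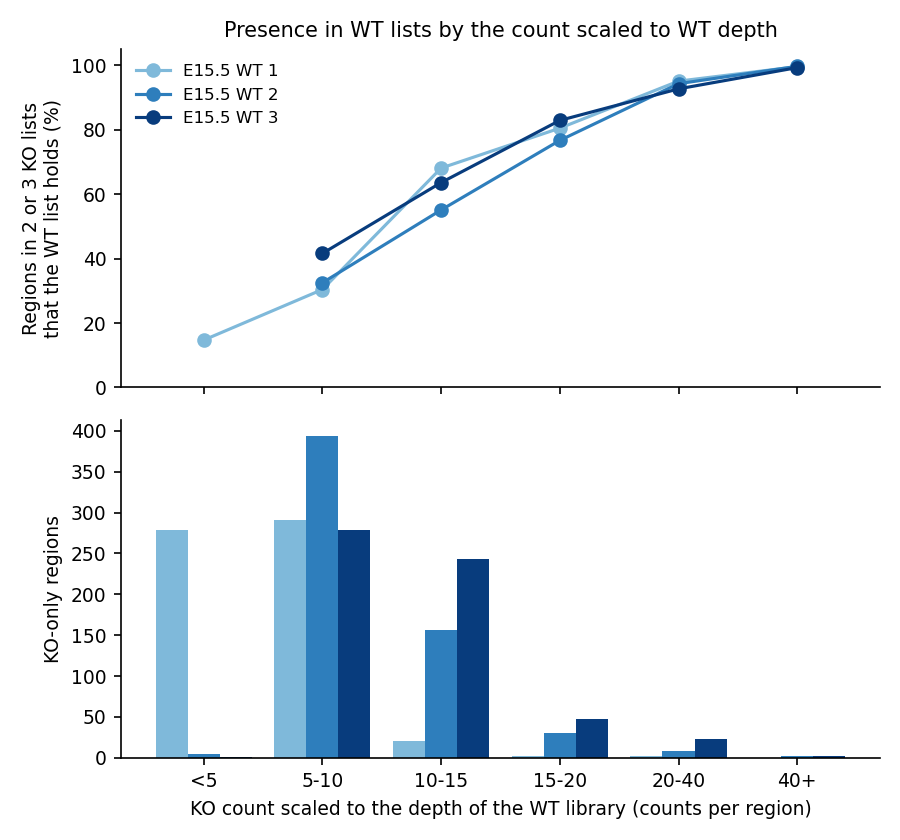
Upper panel, share (%) of the union regions in 2 or 3 E15.5 KO lists that each WT list holds, by the mean KO count scaled to the depth of that WT library (counts per region, 6 ranges; points resting on fewer than 20 regions are not drawn). Lower panel, number of KO-only regions in each range; in WT replicate 3, 279 and 243 of them lie in the ranges from 5 to 10 and from 10 to 15, where 41.6% and 63.6% of regions are listed. The shares include the KO-only regions, which are unlisted by the rule, and are lowered by them.

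The KO-only regions were of middle width. Their median width was 3800 bp, with quartiles of 2400 and 5200 bp and a range from 200 to 16200 bp. All union regions had a median of 3200 bp and regions in all 6 lists one of 9200 bp. The 115 regions with the opposite pattern also had a median of 3800 bp. The 175 regions in all 3 KO lists were wider, at a median of 4800 bp, than the 420 in exactly 2 KO lists, at 3300 bp. Just outside the rule, the 3425 regions in 1 KO list and no WT list had a median width of 800 bp and a median count per depth of 34.7. The 734 regions in at least 2 KO lists and 1 WT list had a median width of 4400 bp and a median count per depth of 79.1. The values inside the rule were 62.4 for the regions in 2 KO lists and 80.2 for those in all 3, and the regions in all 3 KO lists were thus close in width and count to those with an interval in 1 WT list.

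**Figure D2:**
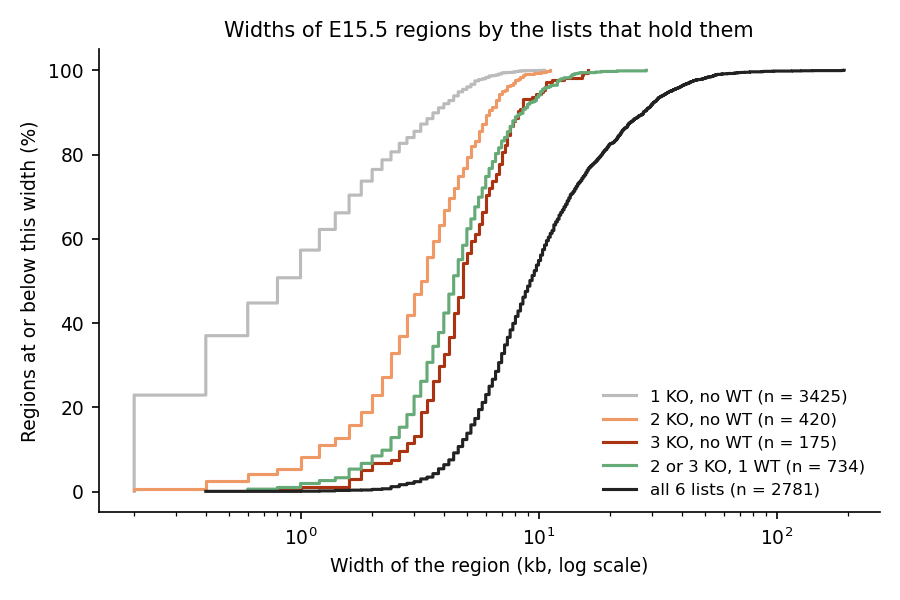
Cumulative share (%) of E15.5 union regions at or below a width (kb, log axis), by the lists that hold them. The curve of the 175 regions in all 3 KO lists runs close to that of the 734 regions in 2 or 3 KO lists and 1 WT list, both left of the 2781 regions in all 6 lists.

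The KO-only region with the highest count covered the 3′ end of Epha7, which encodes a receptor tyrosine kinase for membrane-bound ephrin-A ligands in axon guidance. This region, chr4:28960801-28973600, held counts of 92, 69 and 141 in KO replicates 1, 2 and 3. Divided by depth these are 515.2, 319.8 and 408.1, and the mean of 414.4 scales to 31.1, 53.6 and 62.1 counts in WT replicates 1, 2 and 3. Each scaled count is far above the smallest autosomal count in its WT list, which is 5, 7 and 7, and no WT list holds an interval within 144800 bp. At E12.5 the same region was listed in WT replicates 2 and 3, with counts of 178 and 69, and in KO replicates 2 and 3, with counts of 90 and 65. Both genotypes thus carried it at E12.5, and the first replicate of each had no interval.

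Next came 3 wide regions outside protein-coding genes. The region chr5:75341201-75356400 lies between genes, with Pdgfra, the receptor for platelet-derived growth factor in oligodendrocyte precursors and mesenchyme, as the nearest at 142994 bp. Its counts were 65, 72 and 97 in KO replicates 1, 2 and 3, and all 6 E12.5 lists held it. Counts of the region chr6:39737801-39753200, which is 12142 bp from the kinase gene Braf, were 48, 30 and 132. Replicate 3 stood above the other replicates there, also per depth, at 382.0 against 268.8 and 139.0. The widest of all, chr4:10966401-10982600, spans 16200 bp near Plekhf2, which encodes an endosomal protein, and had counts of 31, 73 and 76. It was in none of the 6 E12.5 lists, so its intervals appear here in the E15.5 KO lists alone.

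Other regions with high counts were spread over the genome. Slco3a1, an organic anion transporter gene, held a region inside it (chr7:74520801-74531200) with counts of 35, 47 and 27. Perp, a p53 target gene with a role in epithelial junctions, had a region of 3400 bp over a gene end (chr10:18844001-18847400) with counts of 37, 23 and 51. The Perp region was in all 6 E12.5 lists, and the Slco3a1 region in 3 of them. Kifc3, which encodes a minus-end-directed kinesin, held a region of 10200 bp (chr8:95149201-95159400) with counts of 30, 43 and 31 that no E12.5 list held. A region of 9800 bp (chr8:30913001-30922800), 166726 bp from its nearest gene Dusp26, had counts of 24, 46 and 41 and was also in no E12.5 list. Whether a region inside a gene falls in exons or introns was not read here.

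**Figure D3:**
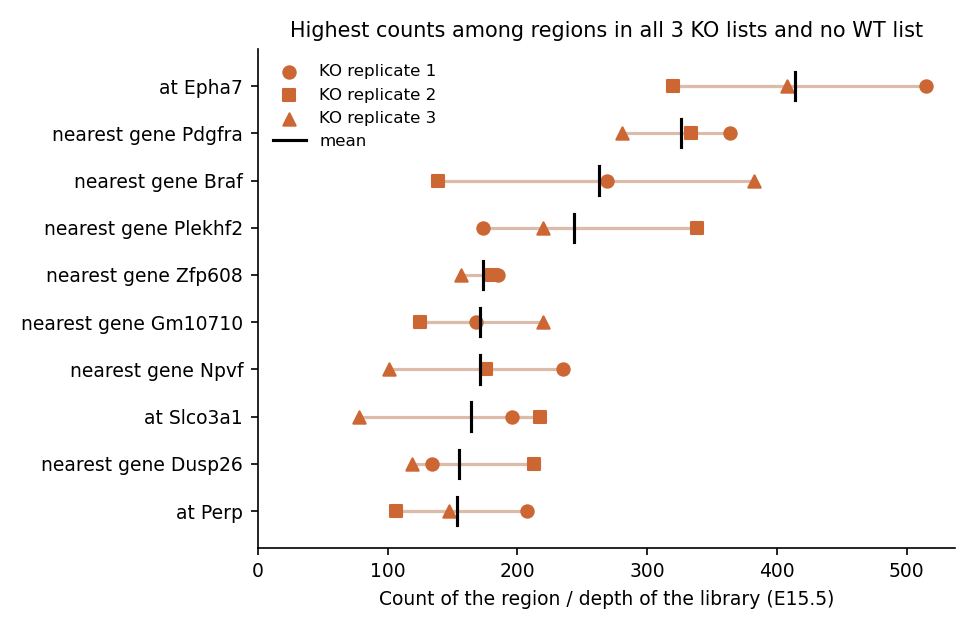
Count divided by library depth in E15.5 KO replicates 1, 2 and 3 (symbols) and their mean (bar) for the 10 KO-only regions with the highest mean among the 175 in all 3 KO lists, named by the gene they overlap or the nearest gene. The region at Epha7 has the highest mean, 414.4, and replicates differ most for the regions near Braf and at Epha7.

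A protein-coding gene end lay within 2500 bp of 212 KO-only regions (35.6%), 187 (31.4%) lay inside a gene away from its ends, and 196 (32.9%) lay outside genes. Over all union regions the shares were 42.2%, 26.8% and 30.9%. Over regions in all 6 lists they were 74.1%, 12.2% and 13.7%. The KO-only regions were therefore placed at gene ends less often than the constant regions, as were the 115 regions of the opposite pattern, of which 35.7% were near a gene end. The constant regions were also wider, at a median of 9200 against 3800 bp, and the part that width plays was not tested. Of the 734 regions in at least 2 KO lists and 1 WT list, with a median width of 4400 bp, 54.4% were near a gene end. With 3 KO lists required the share near a gene end was 40.0%.

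Start sites were ranked by the mean count per depth over the KO libraries with an interval, so a library without one does not lower the mean. In this order the gene pair Gm13286 and Gm13283 on chromosome 4 came first, at 135.4. That region held 26 counts in KO replicate 1, 27 in replicate 2 and no interval in replicate 3. These predicted genes belong to a family of near-identical copies beside the interferon zeta gene Ifnz, where reads may not be assigned to a single copy, so their values are uncertain. Papolb, a poly(A) polymerase gene expressed in testis that lies within Radil, had counts of 21, 32 and 40. Its mean per depth was 127.2, over all 3 KO libraries. Notch3, a Notch receptor best known in vascular mural cells, had counts of 31, 16 and 38 over chr17:32159401-32167800. Asphd2 held 33 counts in replicate 1, 14 in replicate 2 and no interval in replicate 3. Kcnh2, a voltage-gated potassium channel gene, had 28 and 25 counts in replicates 1 and 3, and lies 600 bp from an interval of a WT list.

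The remaining start-site genes with high counts were of mixed function. Eno2, a glycolytic enzyme gene of neurons, had counts of 20, 27 and 27. Hk2, which encodes a hexokinase, had counts of 20, 21 and 33. Vegfa, the gene of a secreted growth factor for endothelial cells, had counts of 13, 22 and 46 over chr17:46027401-46034000. All 3 KO replicates held these 3 regions. Sema4c, a transmembrane semaphorin gene, had 24 and 18 counts in replicates 1 and 2, and Nhsl1 had 24 and 27 counts in replicates 1 and 3. At E12.5 the Vegfa region was listed in KO replicate 1 alone, with 18 counts, and the Sema4c and Nhsl1 regions in KO replicate 3 alone, with 8 and 6 counts.

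Few listed genes of any kind lay near KO-only regions, where near means an annotated gene end inside the region or within 2500 bp. A gene that only holds a KO-only region between its ends, as Kcnh2 does, is not counted. Over all 20665 autosomal protein-coding genes 263 (1.27%) were near one by this measure, and a count of 0 in a short list is near that share. None of 39 Hox genes, 60 developmental transcription factor genes and 34 signalling developmental regulators had an end within 2500 bp of one. The regions in all 6 E15.5 lists were near all 39 Hox genes, 59 of the 60 transcription factor genes and 28 of the 34 signalling genes, and a gene inside such a region is largely outside the reach of the rule. Counts for marker genes were likewise 0: 0 of 24 for MGE progenitors and interneurons, 0 of 21 for lateral and caudal ganglionic eminence, 0 of 18 for dorsal pallium, 0 of 15 for oligodendrocyte lineage and astroglia, 0 of 18 for endothelium and pericytes, 0 of 13 for microglia and blood, and 0 of 16 for meninges and mesenchyme. An interval marks repression, so these lists do not measure which cells were present.

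The listed genes near KO-only regions were of mixed kinds. Predicted genes numbered 18 of 1356. Solute carrier genes numbered 6 of 376, among them Slc1a5, a neutral amino acid transporter, with counts of 14, 26 and 22. Npy2r, the gene of a receptor for neuropeptide Y, had a KO-only region with counts of 14, 16 and 12, and Adgrg6, an adhesion receptor gene, had one with 11 and 10 counts in replicates 1 and 3. Axon guidance genes numbered 3 of 65, namely Epha7, Sema4c and Sema4g. Leucine-rich repeat genes numbered 4 of 99. Of the Polycomb machinery 1 of 25 genes was near a KO-only region, namely Phf1, a Polycomb-like partner of the complex, with 15 and 20 counts in replicates 1 and 2. Of the imprinted genes 2 of 38 were, namely Plagl1, with counts of 12, 15 and 14, and Peg10, with 14 and 12 counts in replicates 2 and 3. The share of 1.60% for solute carriers stands beside 1.27% for all genes.

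Noncoding genes at imprinted and microRNA loci were also covered. H19, an imprinted long noncoding RNA gene that hosts the microRNA gene Mir675, lay inside the region chr7:142573401-142581400. It held 28 counts in KO replicate 1, 22 in replicate 2 and no interval in replicate 3, and 5 of the 6 E12.5 lists held it. Mir92b, a member of the miR-25 and miR-92 seed family that is expressed in neural progenitors, lay inside the region chr3:89223801-89230400, which also holds the start of Muc1. Its counts were 18 and 9 in KO replicates 2 and 3. Mir6391 and Mir6392 were the other microRNA genes inside KO-only regions. These regions were singled out after their values were seen. The mature RefSeq sequences of the 2 better known loci are printed 5′ to 3′ with the seed, bases 2 to 8, in capitals, to identify the genes covered by the mark, and the 2 seeds differ.
mmu-miR-92b-3p: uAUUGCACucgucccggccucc
mmu-miR-675-3p: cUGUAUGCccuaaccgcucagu

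Around the Cre driver gene, 4 KO-only regions lay within 1000000 bp of Nkx2-1, and none lay within that distance of Ezh2. The nearest, chr12:56488601-56497400, was 34534 bp from Nkx2-1 and had 35 and 46 counts in KO replicates 2 and 3. A second was 88134 bp away, with 24 and 29 counts in the same replicates. The third lay 18431 bp from Nkx2-9, with counts of 14, 15 and 26, and the fourth inside Slc25a21, with 16 and 12 counts in replicates 1 and 3. All 4 were at most 6400 bp from an interval of a WT list. Across the autosomes, the distance from a KO-only region to the nearest WT interval had a median of 36200 bp. It was below 2000 bp for 53 regions and above 100000 bp for 166. Regions lay singly for the most part, with 86 of them in 42 groups whose neighbours were at most 50000 bp apart. Chromosome 4 held 66 regions (11.1%), against 8.08% of all union regions.

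The E12.5 libraries, which the rule did not use, also held intervals at many KO-only regions. An E12.5 interval of either genotype overlapped 493 of them (82.9%), or 54.1% when the E12.5 lists were brought to equal length. Over all union regions, which include those in a single E15.5 list, the share was 66.1%. It was 87.0% over the regions in at least 2 WT and no KO list and 93.3% over those in at least 2 KO and 1 WT list, so presence at E12.5 does not set the KO-only regions apart. The WT lists held 149 (25%), 452 (76.0%) and 402 (67.6%) of the regions in replicates 1, 2 and 3. The KO lists held 177 (29.7%), 305 (51.3%) and 338 (56.8%). The genotypes overlap, with WT replicate 1 lowest and WT replicates 2 and 3 highest. The recovered depths were 0.117, 0.698 and 0.481 in the WT libraries and 0.212, 0.272 and 0.243 in the KO libraries. The deepest library held the most regions and the shallowest the fewest, and KO replicates 2 and 3 stood in the reverse order of their depths. The mean share was 10.3 percentage points higher in WT than in KO, against 8.20 points over all union regions, so the difference is near the background. It was 0.364 without WT replicate 2 and 25.8 without WT replicate 1. The spread over libraries within a genotype was 21.8 percentage points.

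**Figure D4:**
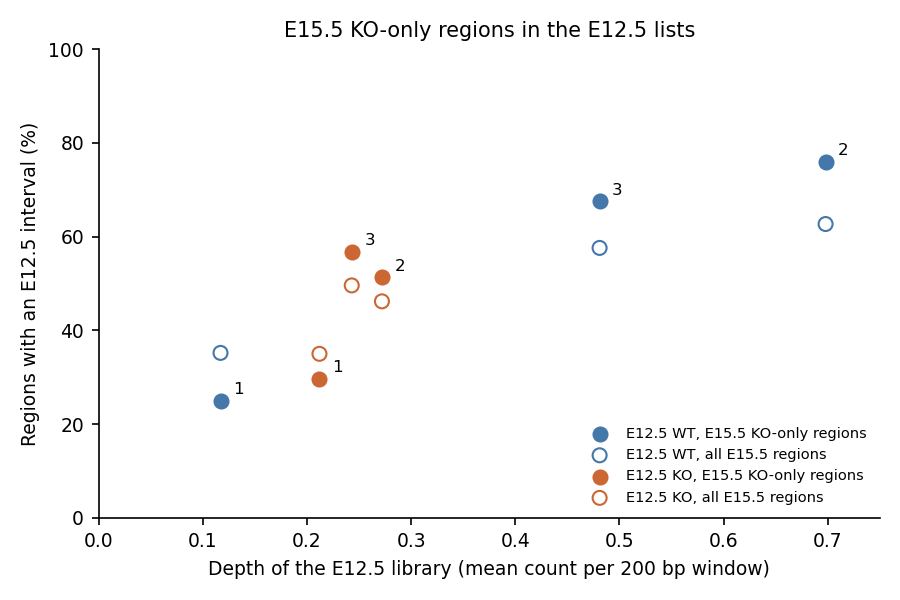
Share (%) of the 595 KO-only regions (filled) and of all 11531 E15.5 union regions (open) that overlap an interval of each E12.5 library, against the depth of that library (mean count per 200 bp window). Numbers are replicates; the share of KO-only regions runs from 25% in WT replicate 1 at a depth of 0.117 to 76.0% in WT replicate 2 at 0.698.

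Per region, 205 KO-only regions (34.5%) were in more E12.5 WT than KO lists, 76 (12.8%) in more KO than WT lists and 314 in equal numbers. The first 2 shares were 22.4% and 5.58% over all union regions, and 28.7% and 15.0% over the regions in at least 2 E15.5 KO lists and 1 WT list. The 3 WT lists without any KO list held 3 regions, against 0.781% of all union regions, and the 3 KO lists without any WT list held 0, against 0.026%. The 3 in WT lists were a region inside Spire1, which encodes an actin nucleator, one 127691 bp from Map3k7 and one 25389 bp from Gm5148. The Spire1 region, chr18:67533201-67538200, had E12.5 counts of 24, 211 and 125 in WT replicates 1, 2 and 3 and no interval in a KO list. At E15.5 it held 18 and 20 counts in KO replicates 1 and 3. All 6 E12.5 lists held 94 of the KO-only regions.

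The 102 KO-only regions in no E12.5 list had a different placement. A start site lay inside 4.04% of them and a gene end within 2500 bp of 10.8%, while 52.0% were outside genes. For the 493 regions in an E12.5 list these shares were 32.7%, 40.8% and 29.0%. Their median width was 3200 bp against 3800 bp, and their median count per depth 60.2 against 69.6. All 3 KO lists held 22 of the 102 (21.6%) and 153 of the 493 (31.0%). The same split was not made over other E15.5 regions, so this placement is not shown to be particular to KO-only regions. Regions in 1 KO list and no WT list were in no E12.5 list in 66% of cases, and 21% were near a gene end. For regions in 1 WT list and no KO list these shares were 63.1% and 22.3%. The regions with Plekhf2 and Dusp26 as nearest genes and the region inside Kifc3 belong to the 102. So do the region near Peg10 and the region at Olfr71. A region of 7000 bp (chr13:114526201-114533200, with counts of 36, 24 and 44) also belongs to the 102. Fst, a gene for an activin-binding protein, is named for orientation only, as its distance is not given here. This region was singled out outside the naming rules given below.

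A count test at E12.5 compared the genotypes where all 6 lists held an interval. Of 3243 such E12.5 regions, 127 overlapped 130 KO-only regions. In edgeR's quasi-likelihood test with libraries scaled by depth and Benjamini-Hochberg adjustment over all 3243, 13 of the 127 were lower in KO and 2 were higher at an adjusted p below 0.05. The background is 10.4% lower and 0.339% higher, or 10.7% in either direction, so the 13 are close to the share over all regions. The median log2 change was -0.39 over the 127 and -0.56 over all regions. With TMM factors the calls were 5 lower and 8 higher among the 127, and 143 lower and 94 higher over all regions, with medians of 0.19 and -0.04. Lower regions numbered 5 of the 127 (87 of all 3243) without WT replicate 2, 4 (92) without WT replicate 3 and 6 (121) without KO replicate 2. Without KO replicate 3 the numbers were 32 of the 127 and 1538 of all regions. The scaling shifts all regions by about as much as the median change itself, and the direction of a small change thus depends on it. Every KO library was below every WT library in 28 of the 127 (background 33%) and above in 2 (background 0.648%). These E12.5 regions can be far wider than the KO-only region inside them, and the test is of the E12.5 region. Its counts are summed over listed intervals only, so stretches of the region without an interval in a library add none. A log2 change can thus also reflect how much of a region was listed in each library, which was not tested.

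The largest fall among the 127 was in a region inside Prdm16, which encodes a chromatin regulator of neural progenitors. The E12.5 region, chr4:154540001-154575400, had normalised counts (counts brought to the average E12.5 depth) of 69.0, 306.2 and 230.2 in WT replicates 1, 2 and 3 and of 23.8, 9.9 and 8.3 in KO. No KO value reaches the lowest WT value. Before scaling, the counts in KO replicates 1, 2 and 3 were 15, 8 and 6, and the smallest autosomal counts in those lists were 10, 6 and 6. The KO values thus lie near the lowest counts that can be listed, and the size of the fall is uncertain. The log2 change was -3.90 (SE 0.50, edgeR adjusted p = 2.62e-12), and with TMM factors -3.33 (adjusted p = 0.00334). The KO-only region at its edge, chr4:154540801-154546000, then had 13 and 35 counts in E15.5 KO replicates 1 and 3. Another E12.5 region inside Prdm16, chr4:154455801-154486800, also overlaps a KO-only region and was not called, with normalised counts of 189.8, 417.8 and 284.3 in WT and of 195.6, 234.1 and 368.9 in KO (log2 change -0.17, SE 0.36, edgeR adjusted p = 0.705). A region inside Sel1l3 (chr5:53133801-53172800) had normalised counts of 313.5, 789.7 and 666.1 in WT and of 52.5, 147.4 and 149.8 in KO, again without overlap. Its log2 change was -2.34 (SE 0.37, edgeR adjusted p = 6.55e-08).

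A region that holds the start of Itm2b, a gene of a neuronal membrane protein, also fell. Its normalised counts over chr14:73384401-73396600 were 69.0, 143.9 and 141.8 in WT and 22.3, 16.1 and 11.1 in KO. The change was -2.88 on the log2 scale, with an SE of 0.47 (edgeR adjusted p = 1.22e-07). Over all alternatives the highest adjusted p was 0.00677 for Prdm16, 0.0193 for Sel1l3 and 0.0141 for Itm2b, so these 3 passed in every one. All the alternatives use the same counts of listed intervals. Before scaling, the Itm2b region had 14, 13 and 8 counts in KO replicates 1, 2 and 3, which is also near the smallest counts of those lists. A region far from genes, chr9:88037801-88074000, holds a pair of KO-only regions and changed by -1.58 (SE 0.37, edgeR adjusted p = 0.00064), with adjusted p from 1.4e-05 to 0.11 over the alternatives. These 4 regions and the one at Clybl, with a log2 change of -1.23, were also lower with TMM factors. Among the genes whose promoters are printed above, Tnfrsf1a, the receptor for tumour necrosis factor, had normalised counts of 66.2, 59.4 and 52.6 in WT and of 25.4, 12.4 and 20.8 in KO. The groups do not overlap, and the log2 change was -1.60 (SE 0.40, edgeR adjusted p = 0.00235). Tmem37 had 60.4, 98.1 and 77.2 in WT and 30.2, 22.3 and 38.8 in KO (log2 change -1.40, SE 0.41, edgeR adjusted p = 0.0136). With TMM factors neither gene passed, at edgeR adjusted p = 0.126 and 0.0877, and over all alternatives the adjusted p ran from 0.00289 to 0.300 for Tnfrsf1a and from 0.00301 to 0.238 for Tmem37. Its CpG-rich promoter sets Tmem37 apart from Tnfrsf1a in sequence, though both were lower in KO.

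Both regions that were higher in KO at E12.5 were wide and strongly marked. The region chr3:88191001-88249400, which overlaps Rhbg, an ammonium transporter gene, had normalised counts of 2295.4, 2009.8 and 1830.5 in WT and of 3178.1, 4942.5 and 3844.5 in KO. Its log2 change was 0.97 (SE 0.24, edgeR adjusted p = 0.00148), and 1.48 with TMM factors (edgeR adjusted p = 0.00402). The adjusted p ran from 6.68e-16 to 0.115 over the alternatives. A region whose KO-only part lies 69579 bp from Wnt7b, chr15:85638401-85681400, changed by 0.65 (SE 0.23, edgeR adjusted p = 0.0441), with a highest adjusted p of 0.311 over the alternatives. The KO-only regions at their edges are small, at 2400 and 3600 bp, with E15.5 counts of 12 and 13 and of 16 and 11 in KO replicates 1 and 3. Of the other called regions, Plcd3, Zfp385c, Fam169a, the Ifnz locus, Rasef and a region on chromosome 19 were lower, with log2 changes from -1.51 to -1.09. The region near Wnt7b and those at Fam169a, Ifnz, Rasef and on chromosome 19 were named after their values were seen.

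**Figure D5:**
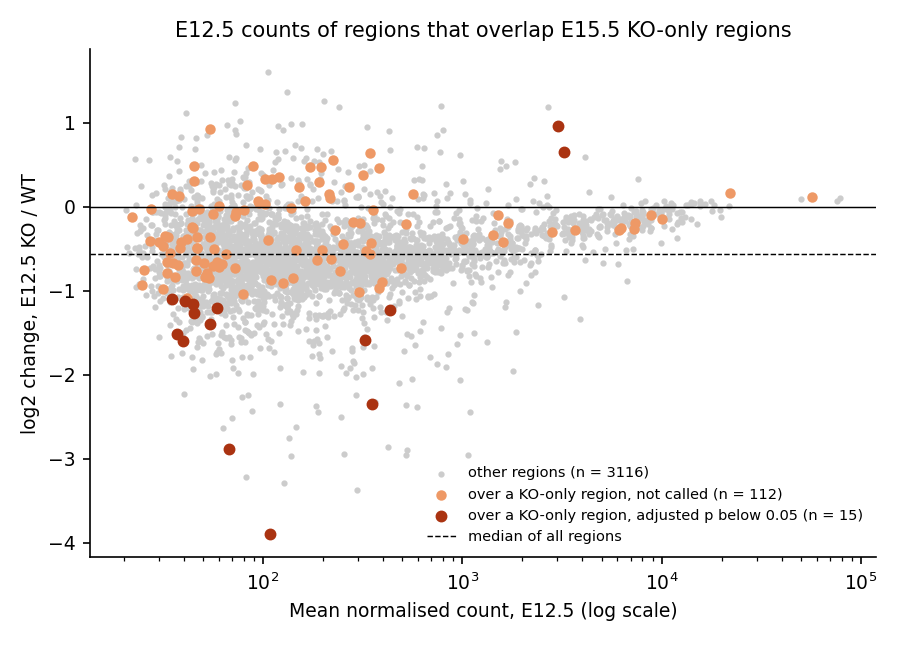
log2 change of KO over WT at E12.5 against the mean normalised count (log axis) for 3243 regions in all 6 E12.5 lists, scaled by depth. Of the 127 that overlap a KO-only region, 13 are called lower and 2 higher; the dashed line is the median of all regions, -0.56, and the lowest point is the region in Prdm16 at -3.90.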

How the data were processed

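The 12 WT and KO libraries were analysed, and the 6 heterozygous samples were not analysed here. The submitters' processing notes name cutadapt, Bowtie2, SAMtools, Picard, deepTools, SICER and the builds GRCm38 and mm10, without roles or settings. The authors deposited a list per library, on 200 bp windows, with a count and a score for each interval. The count is not normalized. Scores of intervals of 1 window equal the negative natural log of a Poisson probability (largest misfit 0.0041), and the mean it implies was used as depth, which is an assumption. Intervals sharing at least 1 bp were joined. Regions without an interval have no count.

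Genes and start sites came from RefSeq on GRCm38.p6 (start sites for 16457 of 20154 protein-coding genes on 18 autosomes; none used on chromosome 18). E12.5 counts were tested with edgeR 4.0.16 in R 4.3.3, and DESeq2 1.42.0 was an alternative. On simulated counts the test recovered 39% of 200 regions changed 2-fold among 3243, with 7 false calls. Joining and summaries used pandas 2.3.3 and numpy 2.4.6 with scipy 1.17.1 in Python 3.11.15, and plots matplotlib 3.10.9. The labels call the replicates biological without naming embryos, so the p-values measure the spread between these samples.

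The regions and lists were chosen with earlier results of these data known. Named regions are the 10 widest and the 10 with the highest counts in all 3 KO lists, those near listed genes, the first 10 called at E12.5, those in 1 genotype's E12.5 lists, and the first 10 start sites by count. Alternatives were other KO lists, joining, score and distance limits, list lengths, scalings, filters, a replicate block and leaving out each replicate.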

Additional observations from a re-analysis of the deposited data

Results flagged for a closer look

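Chromosome X was left out of the rule, and there 87 of 428 E15.5 union regions (20.3%) had an interval in at least 2 KO lists and in no WT list, against 5.16% on the autosomes. The result stands out because it lies in data that the comparisons above do not use. KO replicates 1 and 3 alone shared 85 of the 87, and 2 were in all 3 KO lists. The opposite pattern was held by 1 region. The number of X intervals was 63, 56 and 83 in WT replicates 1, 2 and 3 and 341, 51 and 325 in KO replicates 1, 2 and 3, so KO replicate 2 was like the WT libraries. At E12.5 the autosomes held 4933 of 5008, 10730 of 10847 and 10493 of 13289 intervals in WT replicates 1, 2 and 3. In KO replicates 1, 2 and 3 they held 4575 of 5806, 8402 of 11500 and 9755 of 12688. Intervals off the autosomes were thus many in every KO library and in WT replicate 3 alone among the WT. Whether this bears on the E12.5 count test was not tested.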

How the results depend on the processing

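The number of KO-only regions was 175 with all 3 KO lists required, 341 with lists of equal length and 310 with scores of at least 100, and from 248 to 1085 with a replicate left out: 248 without KO replicate 3, 316 without KO replicate 1 and 1085 without WT replicate 3. The median width then ranged from 3400 to 4800 bp. The share near a gene end was 40.0% with all 3 KO lists and 40.7% within 5000 bp, and from 33.5% to 44.1% with a replicate left out. The share in any E12.5 list was 87.4% with all 3 KO lists, 71.9% where an interval had to cover at least 1 in 2 bases, 54.1% with E12.5 lists of equal length, and from 76.3% to 88.8% with a replicate left out. The E12.5 WT minus KO difference ranged from 0.364 to 25.8 percentage points with a replicate left out. The share of regions whose scaled count reached the minimum of all 3 WT libraries was 0.672% against the median count of intervals of like width, 26.1% with the lowest KO count and 29.7% with KO libraries without an interval counted as 0, which was chosen after seeing the data. The cause of these shifts was not tested.

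In the E12.5 count test, regions lower and higher in KO numbered 5 and 8 with TMM factors (143 and 94 of all 3243), 7 and 6 with column sums (229 and 56), 4 and 12 with DESeq2 (143 and 146), 3 and 0 with regions in at least 4 of 6 lists (84 and 0 of 5196; unadjusted p below 0.05 in 20 over KO-only regions), and 7 and 2 at a mean count of at least 50 (293 and 10 of 2920). With a replicate left out they ranged from 4 to 32 lower and from 0 to 4 higher; the number lower was 4 without WT replicate 3, 5 without WT replicate 2, 6 without KO replicate 2 and 32 without KO replicate 3. With the replicate block 14 were lower and 1 was higher. Deviations of same-numbered libraries correlated at 0.23, 0.06 and 0.08, and KO replicate 2 correlated best with WT replicate 3 (0.10), so the numbers were not treated as a pairing. Of the 15 called regions 7 kept the call with TMM factors and 11 with the replicate block, and none changed sign under the alternatives run. The small counts of the E15.5 WT libraries limit which regions could be listed there.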
